A study of Saccharomyces cerevisiae with 14 samples.

Results

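The cytosolic large ribosomal subunit of budding yeast, Saccharomyces cerevisiae, is built from ribosomal RNA and proteins of the RPL and RPP genes. The genes described here are every feature whose standard name in the R64 annotation is RPL with a number, with or without the letter A or B, together with RPP0, RPP1A, RPP1B, RPP2A and RPP2B. They number 81 of 6470 features in the count table, 76 RPL and 5 RPP genes, on 14 chromosomes. They encode 46 proteins. Copies A and B, most of them left by an ancient duplication of the yeast genome, exist for 35 of these proteins, and 11 proteins have a single gene (RPL3, RPL5, RPL10, RPL25, RPL28, RPL29, RPL30, RPL32, RPL38, RPL39 and RPP0).

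RNA was measured in a haploid MATa strain that carried PDC1 fused to a red fluorescent protein, with the genotype MATa his3Δ::kanMX4 PDC1-RFP-CaURA3MX4 can1Δ::STE2pr-SpHIS5 lyp1Δ LEU2 his3Δ1 ura3Δ0 in all groups. Metformin, a biguanide given to people with type 2 diabetes, was present at 50 or 0 mM, and cultures were sampled in the stationary or the exponential phase. The 4 groups were stationary metformin (3 libraries), stationary control without metformin (3), exponential metformin (4) and exponential control without metformin (4). Per the labels, cultures of 50 mL in synthetic complete medium set to pH 4 were shaken at 200 rpm and 30 °C, starting at an OD600 of 0.05 from 10 mL precultures grown for 24 h, and all libraries share a batch. The comparisons ask how the large subunit genes differed between the phases, and between cultures with and without metformin in each phase.

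Ribosomal protein genes of yeast are among the most strongly transcribed genes of a growing cell and are repressed together when nutrients run out or the TOR and protein kinase A pathways are inhibited. Rap1 binds most of their promoters and works with Fhl1, Ifh1, Sfp1 and, at many of them, Hmo1. The proteins of the large subunit line the peptide exit tunnel, shape the site where peptide bonds form, and build the stalk of P0, P1 and P2 that recruits translation factors.

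Counts on genes summed to 43897221 to 59443572 per library. Protein-coding genes held 25.1% to 33.3% of these in stationary libraries and 84.0% to 87.5% in exponential libraries. Of 10 stationary-phase markers 9 rose in stationary against exponential control libraries, while the chaperone gene HSP104 fell (log2 fold change -1.53, SE 0.40, edgeR adjusted p = 0.00242). Their summed level was 14647 to 24732 CPM (counts scaled to the TMM-adjusted library size) in stationary metformin, 16036 to 20802 CPM in stationary control, 720.4 to 2260.4 CPM in exponential metformin and 702 to 1912 CPM in exponential control libraries. The 6 MATa markers summed to 172 to 217, 133 to 173, 1005 to 1209.7 and 1181 to 1330.2 CPM in the same order of groups. The 4 MATα markers summed to 41.7 to 47.0, 38.0 to 41.3, 16.6 to 19.9 and 17.0 to 19.0 CPM, and the pheromone gene MF(ALPHA)2 had as few as 2 counts in a library. The part of mating-type transcripts in the results was not tested. The protocol starts from individual colonies without tying a replicate number to a colony, so the p-values reflect only the variation among these libraries, which may be technical.

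Large subunit genes were far lower in stationary cultures. They took 0.587%, 0.724% and 0.581% of gene counts in the stationary metformin libraries and 0.779%, 0.607% and 0.878% in the stationary control libraries. In exponential metformin libraries they took 10.5%, 11.2%, 10.4% and 10.7%, and in exponential control libraries 10.9%, 10.7%, 11.1% and 11.5%. The phases did not overlap, while the metformin and control libraries of each phase did. As a share of counts on protein-coding genes alone, the members held 2.01% to 2.87% in stationary and 11.9% to 13.5% in exponential libraries. In these bulk samples, fewer cells that express a gene and less RNA per cell cannot be told apart.

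**Figure D1:**
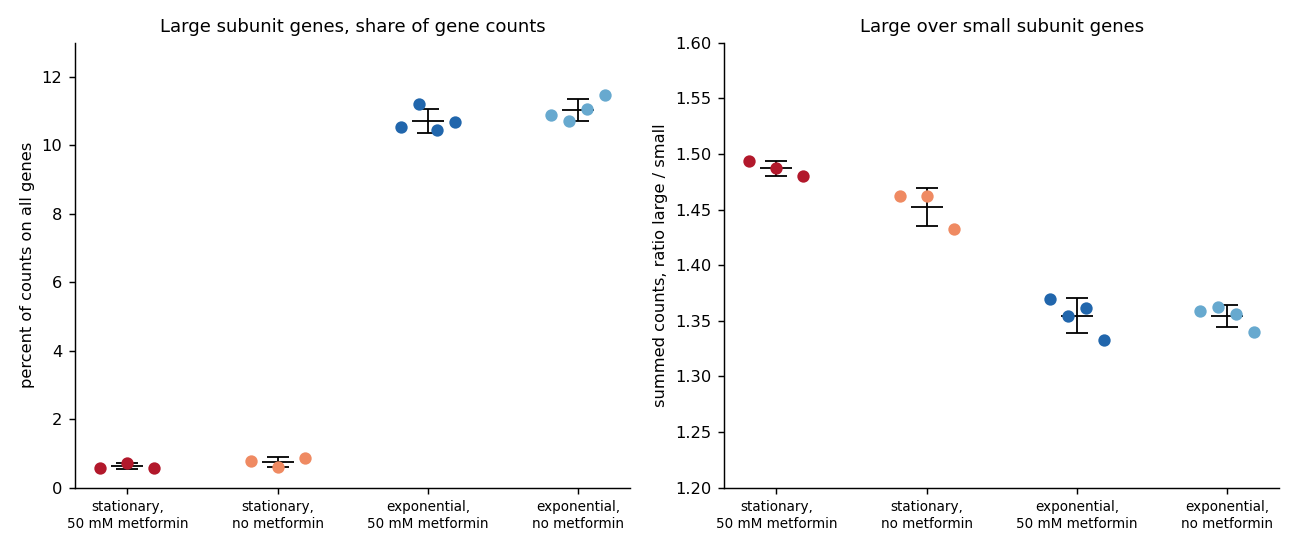
Left, the share of gene counts on the 81 large subunit genes in percent, and right, the ratio of summed counts on large over small subunit genes (axis from 1.2), for each library of the 4 groups. Points are libraries, and black marks show the mean and SD (n = 3 or 4). Stationary libraries lie under 0.9% on the left, exponential libraries above 10%, and on the right stationary libraries lie above exponential ones.

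Without metformin, 80 of the 81 genes were lower in stationary than in exponential libraries and 0 were higher (edgeR quasi-likelihood test, adjusted p under 0.05). Of all 6097 features tested, 42.2% were called lower and 42.4% higher. The members' median log2 fold change was -2.94, a level 7.69-fold lower, against 0.02 over all features tested. In 70 members the log2 fold change was below -2 and in 40 below -3. Standard errors of the members lay between 0.08 and 0.26 on the log2 scale. Small subunit genes, given for comparison, had 56 of 57 lower and a median of -2.99. With metformin, 80 members were lower and 1 was higher, with a median of -2.995, where 41.8% of all features were lower and 40.8% higher. In 80 genes every stationary library lay below every exponential library without metformin, as in 41.9% of all features. With metformin the same held for 80 genes and 40.6% of all features, and in 1 gene, RPL15B, every stationary library lay above, as in 39.1% of all features.

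The size of this difference depends on the scaling between libraries. With library totals in place of TMM the median of all features moved to -1.02 without and -1.22 with metformin, and that of the members to -3.98 and -4.21. All 81 members were then lower, and the split over all features became 65.9% lower and 17.5% higher without metformin, and 70.4% lower and 13.5% higher with it. Set against the median of all features, the members' median stood at -2.96 under both scalings without metformin, and at -2.99 under both with it. This follows nearly by construction, as a change of scaling moves all genes of a comparison by nearly the same amount. It therefore does not show which scaling gives the right size.

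**Figure D2:**
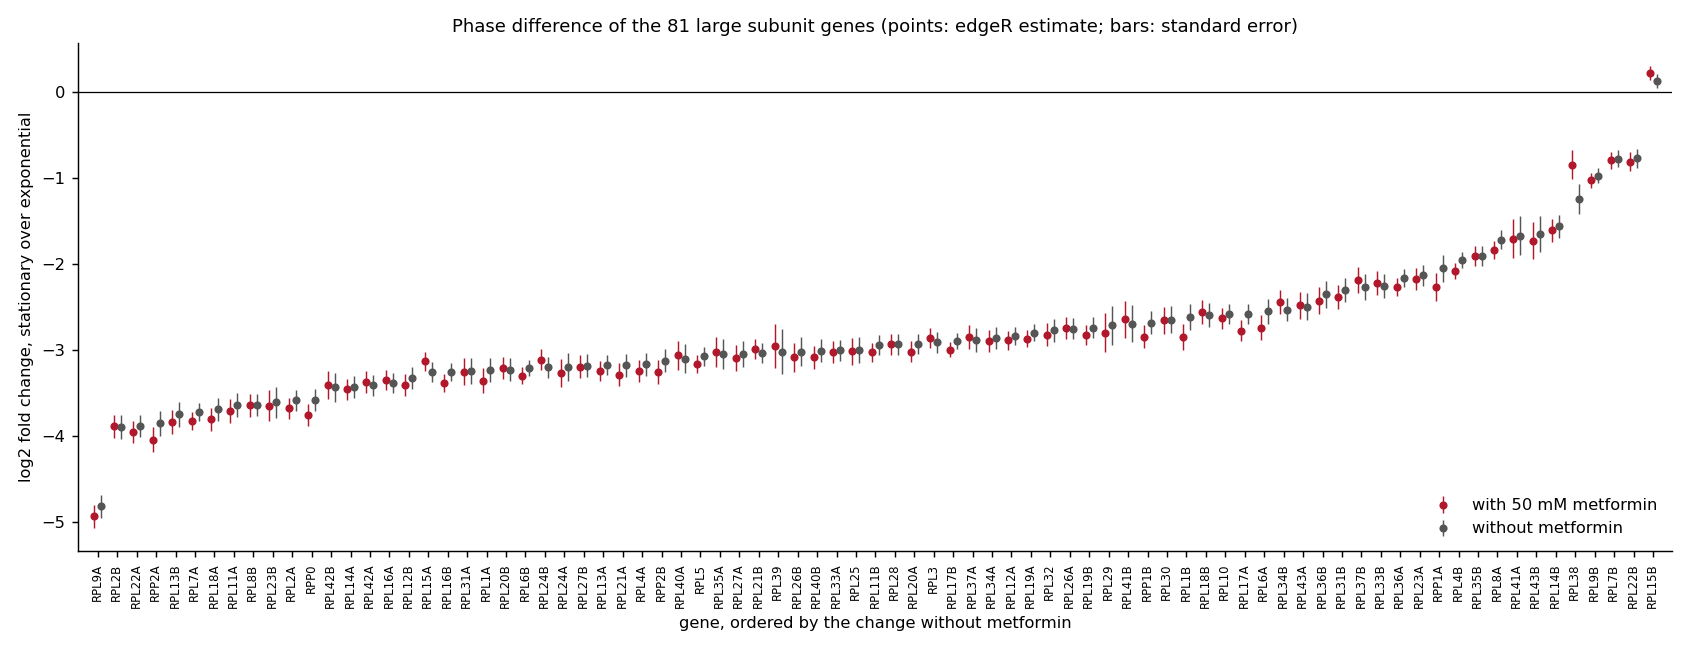
Log2 fold change of stationary over exponential libraries for each of the 81 genes, ordered by the value without metformin, with metformin in red and without it in grey. Points are edgeR estimates and bars standard errors. Values without metformin run from -4.82 for RPL9A to 0.13 for RPL15B, with most genes between -4 and -2.

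The genes that differed most between the phases were RPL9A, RPL2B, RPL22A and RPP2A. RPL9A (YGL147C, R64 chrVII:227754-228329, minus strand, no intron) encodes a core protein of the subunit conserved in bacteria. It had 37.8, 46.2 and 48.1 CPM in stationary metformin, 50.6, 46.1 and 51.1 CPM in stationary control, 1343, 1457, 1168 and 1413 CPM in exponential metformin, and 1465, 1323, 1274 and 1499.6 CPM in exponential control libraries. Every stationary library was far below every exponential one, and RPL9A fell by 4.82 on the log2 scale without metformin (SE 0.13, edgeR adjusted p = 7.05e-13). With metformin it fell by 4.93 (SE 0.14).

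Of all members RPL15B had the highest log2 fold change between phases, 0.13 without metformin. Its upstream sequence and those of RPL9A and its copy RPL9B, the pair whose balance changed most, are printed from R64. Each covers the bases 400 to 101 upstream of the start codon, read on the gene's own strand, at chrVII:228430-228729 (minus strand) for RPL9A, chrXIV:499281-499580 (plus strand) for RPL9B and chrXIII:510449-510748 (minus strand) for RPL15B. Capitals mark a match to the Rap1 core ACCCNNACA, here on the opposite strand, 310 to 302 bases upstream of RPL9A. The windows of RPL9B and RPL15B hold no match, and they overlap the annotated reading frames YNL067W-B and YMR122C.
RPL9A: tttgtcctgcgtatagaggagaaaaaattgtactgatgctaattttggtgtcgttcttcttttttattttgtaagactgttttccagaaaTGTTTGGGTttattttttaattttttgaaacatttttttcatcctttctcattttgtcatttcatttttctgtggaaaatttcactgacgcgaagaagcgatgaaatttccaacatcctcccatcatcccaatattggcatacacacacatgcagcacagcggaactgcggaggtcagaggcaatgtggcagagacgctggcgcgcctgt
RPL9B: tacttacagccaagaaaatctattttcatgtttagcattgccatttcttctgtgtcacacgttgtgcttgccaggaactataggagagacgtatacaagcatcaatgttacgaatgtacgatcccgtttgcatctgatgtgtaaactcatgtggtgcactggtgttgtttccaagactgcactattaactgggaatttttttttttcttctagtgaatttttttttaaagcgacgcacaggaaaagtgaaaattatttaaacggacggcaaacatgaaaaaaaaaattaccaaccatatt
RPL15B: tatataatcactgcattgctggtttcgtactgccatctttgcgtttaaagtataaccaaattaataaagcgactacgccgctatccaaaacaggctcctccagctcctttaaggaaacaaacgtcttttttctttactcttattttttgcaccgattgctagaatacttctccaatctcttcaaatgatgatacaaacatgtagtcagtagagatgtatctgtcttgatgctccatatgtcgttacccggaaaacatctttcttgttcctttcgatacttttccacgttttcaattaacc
Over all members, 31 of 81 such windows (38.3%) held the Rap1 core on either strand, against 22.8% of small subunit genes and 3.93% of 6000 protein-coding genes. Genes with and without a match had median log2 fold changes between phases of -2.94 and -3.03 without metformin. The stress response element AGGGG, searched on both strands, was in 19.8% of the members' windows and 23.5% of all. A match to a short motif is a description of these letters, and no match says nothing of binding outside the window.

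RPL2B (YIL018W, chrIX:316768-317932, plus strand, 1 intron) encodes a protein at the peptidyl transferase centre. Its levels were 118, 135 and 148 CPM in stationary metformin, 131, 118 and 162 CPM in stationary control, 1952, 2137, 1809 and 2008 CPM in exponential metformin, and 2032, 1930.0, 2035 and 2191 CPM in exponential control libraries. The log2 fold change was -3.90 (SE 0.14) without metformin and -3.89 (SE 0.14) with it. Its copy RPL2A averaged 93.9 ± 7.92 CPM in stationary metformin, 101 ± 13.0 in stationary control (SD, n = 3 each), 1203 ± 96.5 in exponential metformin and 1208 ± 58.8 CPM in exponential control libraries (SD, n = 4 each). Both copies thus changed alike in direction, and the summed level of the RPL2 pair had the most negative log2 ratio between phases of the 46 proteins, -3.77 without metformin.

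The stalk genes fell by unequal amounts. RPP0 (YLR340W, chrXII:805887-806825, plus strand), the single gene of the protein that anchors the stalk, had 129, 165 and 162 CPM in stationary metformin, 150.4, 159 and 194 CPM in stationary control, 2083, 2204, 1873 and 2054 CPM in exponential metformin, and 2038, 1976, 2037 and 1976 CPM in exponential control libraries. It fell by 3.58 (SE 0.13) without metformin and fell by 3.76 (SE 0.13) with it. P1 and P2 are small acidic proteins that pair on P0, P1A with P2B and P1B with P2A. RPP2A had 46.4, 52.4 and 58.3 CPM in stationary metformin, 56.1, 52.9 and 73.1 CPM in stationary control, 882, 965, 757 and 853 CPM in exponential metformin, and 907, 886, 809 and 905 CPM in exponential control libraries. The log2 fold change without metformin was -3.85 (SE 0.14) for RPP2A, -3.13 (SE 0.14) for RPP2B, -2.68 (SE 0.14) for RPP1B and -2.05 (SE 0.16) for RPP1A. All 5 stalk genes passed as lower, RPP2A by the most and RPP1A by the least.

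At the other end stood RPL15B, RPL22B, RPL7B, RPL9B and, as the single-copy gene that changed least, RPL38. RPL15B (YMR121C, chrXIII:509734-510348, minus strand), the weaker copy of a core protein gene, had 29.8, 27.0 and 28.1 CPM in stationary metformin, 30.6, 25.9 and 25.4 CPM in stationary control, 26.3, 24.1, 24.6 and 22.1 CPM in exponential metformin, and 26.1, 24.2, 25.8 and 23.7 CPM in exponential control libraries. Control libraries of both phases overlapped and the difference did not pass (log2 fold change 0.13, SE 0.08, edgeR adjusted p = 0.156). With metformin every stationary library was above every exponential one, and RPL15B rose by 0.22 (SE 0.08, edgeR adjusted p = 0.0245). That call did not hold under upper-quartile scaling (adjusted p = 0.0513), without stationary metformin replicate 1 (adjusted p = 0.109) or without exponential metformin replicate 4 (adjusted p = 0.0528). With library totals alone RPL15B was lower in stationary libraries, by log2 -0.90 without and -0.99 with metformin.

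RPL38 (YLR325C, chrXII:781143-781379, minus strand) encodes one of the smaller proteins of the subunit, from a coding sequence of 237 bases. It had 498, 406 and 742 CPM in stationary metformin, 423, 438 and 543 CPM in stationary control, 942, 1021, 932 and 1059 CPM in exponential metformin, and 1167, 1075, 1015 and 1184 CPM in exponential control libraries. The phases did not overlap, and RPL38 fell by 1.25 (SE 0.17) without metformin and by 0.85 (SE 0.17) with it. Among single-copy genes the log2 fold change without metformin ran from -3.58 in RPP0 to -1.25 in RPL38, with a median of -2.91. The 9 genes with coding sequences under 300 bases had a median of -2.50, against -3.01 in the other 72. The 53 genes with an intron had a median of -3.003 and the 28 without one -2.93.

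Levels per length spread widely among the members. Per kilobase of coding sequence the median gene had 251 CPM in stationary control and 2075 CPM in exponential control libraries. In exponential control libraries RPL41A had 27651, RPL41B 13064 and RPL39 5256 CPM per kilobase, while RPL7B had 243, RPL22B 223 and RPL15B 40.6 CPM per kilobase. RPL41A and RPL41B encode the shortest ribosomal protein, and RPL39 a protein that lines the exit tunnel. RPL41A had 546, 393 and 760.0 CPM in stationary metformin, 627, 506 and 898 CPM in stationary control, 2087, 2070.5, 1531 and 1705 CPM in exponential metformin, and 2311, 2094, 2022 and 2199.6 CPM in exponential control libraries. Stationary libraries were all lower, by 1.67 on the log2 scale without metformin (SE 0.23). For genes this short, few fragment positions fall inside the coding sequence, and a value per kilobase of coding length includes reads from the untranslated ends.

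Copies of a pair share much of their sequence. The coding identity of the 35 pairs ranged from 70.48% (RPP1) to 99.39%, with a median of 93.25%. In 12 pairs both copies encode the same protein, and in 23 the proteins differ, by up to 44 residues. The coding sequences of the RPL41 copies, 78 bases each on the minus strand of chromosome IV in R64, at chrIV:130407-130484 (A) and chrIV:221724-221801 (B), show how little can separate a pair. They differ by 1 base, C9T from copy A to copy B, with positions counted from the A of the start codon and the differing base in capitals.
RPL41A: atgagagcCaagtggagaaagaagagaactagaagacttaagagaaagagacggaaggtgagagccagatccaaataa
RPL41B: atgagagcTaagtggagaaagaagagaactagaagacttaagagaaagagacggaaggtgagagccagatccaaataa
A fragment that does not cover a differing position, or the ends outside the coding sequence, aligns to both copies. Such reads were among those set apart in the deposited table as not unique, which made up 1.13% to 1.40% of reads in stationary and 6.11% to 6.84% in exponential libraries. In 12 members fewer than 50% of the 50-base windows of the coding sequence occur once in the R64 genome, and the median member has 93.8%. The ratio between copies in 1 library therefore also reflects where they can be told apart, while a change of that ratio between groups compares the same positions.

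The balance between the copies differed between the phases in most pairs. Without metformin the A to B count ratio changed in 31 of 35 pairs (limma on log2 ratios, adjusted p under 0.05 over all 62 pairs of A and B genes in the table), against 91.9% of all 62 pairs. With metformin it changed in 29 pairs, against 88.7% of all 62. The members' share was thus near that of the 27 other pairs, of which 26 changed without metformin. These others were picked by name alone and take in the A and B pairs of small subunit ribosomal protein genes. They therefore do not stand for duplicated genes in general, and the 62 pairs include the 35 members themselves. In 28 member pairs the change passed in both, with the same sign in all 28. The median absolute change without metformin was 0.62 on the log2 scale in the 35 pairs and 0.73 in the 27 others. In 11 pairs it exceeded 1 and in 4 it exceeded 2. Of the 31 changed pairs, the copy with more counts in exponential control libraries lost share in 21 and gained it in 10. The larger copy was picked in the same libraries from which the change is measured, which favours a loss of share. This count was not made for the 27 other pairs, so no conclusion is drawn from it. RPL19, RPL24, RPL40 and RPL42 did not pass, with changes between -0.07 and 0.03.

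**Figure D3:**
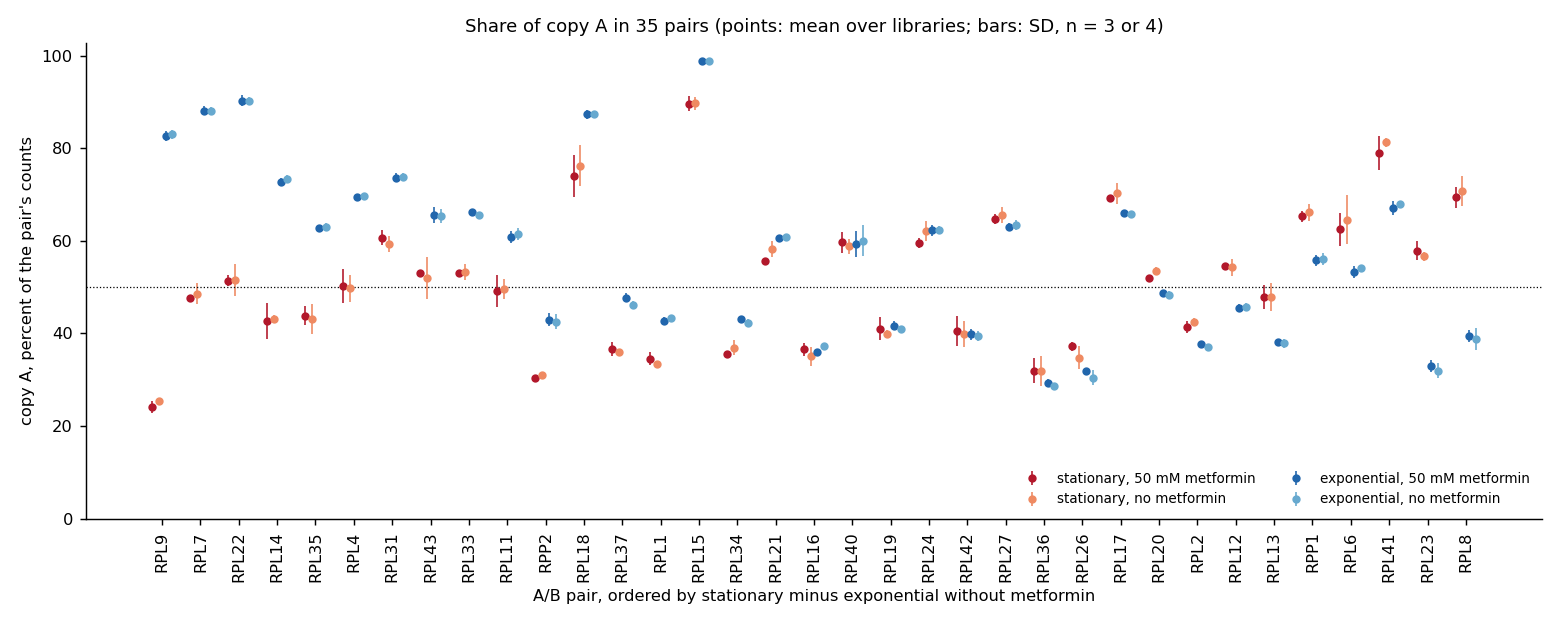
Share of copy A in the counts of each of the 35 pairs, in percent, by group, ordered by the difference between stationary and exponential control libraries. Points are means over libraries and bars SD (n = 3 or 4); the dotted line marks 50%. The phases stand apart at the left and right ends (RPL9 and RPL8), and metformin and control means of the same phase lie close together in all pairs.

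RPL9 changed most. Copy A made up 24.1% ± 1.26 of the pair's counts in stationary metformin and 25.4% ± 0.762 in stationary control libraries (SD, n = 3 each), against 82.7% ± 1.05 in exponential metformin and 83.0% ± 1.03 in exponential control libraries (SD, n = 4 each). Copy A was thus the larger in every exponential library and the smaller in every stationary one. The log2 ratio of A to B changed by -3.84 without metformin (SE 0.07, limma adjusted p = 6.27e-16; two-sided exact permutation p = 0.0286, the smallest that 3 against 4 libraries allow) and by -3.91 with it. RPL9B (YNL067W, chrXIV:499681-500256, plus strand) had 127, 146 and 141 CPM in stationary metformin, 143, 141 and 149.8 CPM in stationary control, 260.0, 302, 269 and 291 CPM in exponential metformin, and 282, 260.1, 288 and 308 CPM in exponential control libraries. RPL9B fell by 0.97 (SE 0.09) without metformin. The copies' proteins differ by 4 residues, and their coding sequences agree at 93.8% of bases.

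RPL15, RPL22 and RPL7 shared the direction of RPL9, with copy A taking a smaller share in stationary libraries. RPL15A (YLR029C, chrXII:201976-202590, minus strand), the stronger copy of its pair, had 216, 248 and 279 CPM in stationary metformin, 225, 234 and 255 CPM in stationary control, 2238, 2317, 1992 and 2138 CPM in exponential metformin, and 2413, 2225, 2148 and 2313 CPM in exponential control libraries. Its share of the pair was 89.6% ± 1.57 in stationary metformin, 89.7% ± 1.505 in stationary control, 98.9% ± 0.0985 in exponential metformin and 98.9% ± 0.0734 in exponential control libraries. The log2 ratio changed by -3.38 (SE 0.12) without metformin, yet copy A stayed the larger in every library.

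RPL22A (YLR061W, chrXII:263194-263948, plus strand) and RPL22B (YFL034C-A, chrVI:64243-64932, minus strand) encode a non-essential RNA-binding protein of the subunit, known in yeast to act on the splicing of the RPL22B intron. RPL22A had 43.4, 51.1 and 46.9 CPM in stationary metformin, 50.2, 46.3 and 57.4 CPM in stationary control, 765, 831, 628 and 705 CPM in exponential metformin, and 785, 735, 724 and 793 CPM in exponential control libraries. RPL22B had 41.6, 50.2 and 42.0 CPM in stationary metformin, 54.0, 43.6 and 46.9 CPM in stationary control, 70.1, 87.2, 78.4 and 77.2 CPM in exponential metformin, and 84.7, 70.8, 88.9 and 85.2 CPM in exponential control libraries. The copies were near equal in stationary libraries, where A held 51.4% ± 1.22 with metformin and 51.6% ± 3.44 without (SD, n = 3 each), against 90.3% ± 1.11 and 90.2% ± 0.880 in the exponential metformin and control libraries (SD, n = 4 each). RPL22A fell by 3.89 (SE 0.13) and RPL22B by 0.77 (SE 0.11) without metformin, a ratio change of -3.12 (SE 0.11). Their proteins differ by 19 residues, and all 50-base windows of both copies are unique.

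RPL7A (YGL076C, chrVII:364335-365996, minus strand) and RPL7B (YPL198W, chrXVI:173152-174702, plus strand) each hold 2 introns, with the small nucleolar RNA genes SNR39 and SNR59 inside them on the same strand. RPL7A averaged 93.2 ± 7.91 CPM in stationary metformin, 98.9 ± 8.73 in stationary control, 1324 ± 90.5 in exponential metformin and 1307 ± 33.5 CPM in exponential control libraries. RPL7B averaged 102 ± 9.20, 104 ± 0.225, 178 ± 15.9 and 178 ± 16.7 CPM in the same order of groups (SD, n = 3 and 4). Copy A made up 47.6% ± 0.565 of the pair in stationary metformin and 48.6% ± 2.20 in stationary control libraries, against 88.1% ± 0.932 in exponential metformin and 88.0% ± 0.839 in exponential control libraries. RPL7A fell by 3.72 (SE 0.11) and RPL7B by 0.77 (SE 0.10) without metformin, and the ratio changed by -2.96 (SE 0.08). Only 37.7% of 50-base windows tell these copies apart, so their absolute shares are uncertain. Whether reads of the small nucleolar RNAs count towards either gene was not tested.

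RPL8 went the other way, with RPL8A (YHL033C) at chrVIII:35255-36025 and RPL8B (YLL045C) at chrXII:47859-48629, both on the minus strand. RPL8A had 132, 179 and 154 CPM in stationary metformin, 167, 162 and 173 CPM in stationary control, 512, 609, 550.3 and 543 CPM in exponential metformin, and 545, 517, 589 and 551 CPM in exponential control libraries. RPL8B had 64.4, 70.2 and 68.9 CPM in stationary metformin, 66.1, 58.3 and 84.4 CPM in stationary control, 818, 882, 814 and 880.2 CPM in exponential metformin, and 952, 869.8, 859.8 and 792 CPM in exponential control libraries. Copy B was the larger in every exponential library and copy A in every stationary one, with A at 69.4% ± 2.31 and 70.8% ± 3.24 in stationary metformin and control, and 39.5% ± 1.33 and 38.9% ± 2.35 in exponential metformin and control libraries. The ratio changed by 1.94 (SE 0.10) without metformin.

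RPL14 showed a change of order as well. Copy A held 42.7% ± 3.89 of the counts in stationary metformin and 43.1% ± 0.818 in stationary control libraries, against 72.8% ± 0.781 in exponential metformin and 73.5% ± 0.823 in exponential control libraries. The ratio changed by -1.87 (SE 0.08) without metformin. In 7 pairs without metformin the larger copy was the other one in every library of the other phase. These were RPL8, RPL9, RPL12, RPL14, RPL20, RPL23 and RPL35, and with metformin RPL7 joined them, making 8. Such switches were not counted in the 27 other pairs of A and B genes, so no conclusion is drawn from their number. Which copy is the larger also depends on where the copies can be told apart. Only 18.65% of the coding windows of RPL35 occur once in the genome, so its order is uncertain. On average, copy A of RPL12 held 45.7% in exponential and 54.3% in stationary control libraries, and that of RPL20 48.4% and 53.6%. The stalk pairs moved in opposite directions. Copy A of RPP1 made up 65.3% ± 1.23, 66.1% ± 1.88, 55.8% ± 1.24 and 56.0% ± 1.29, and copy A of RPP2 30.5% ± 0.259, 30.9% ± 0.137, 43.0% ± 1.31 and 42.6% ± 1.63, in stationary metformin, stationary control, exponential metformin and exponential control libraries.

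**Figure D4:**
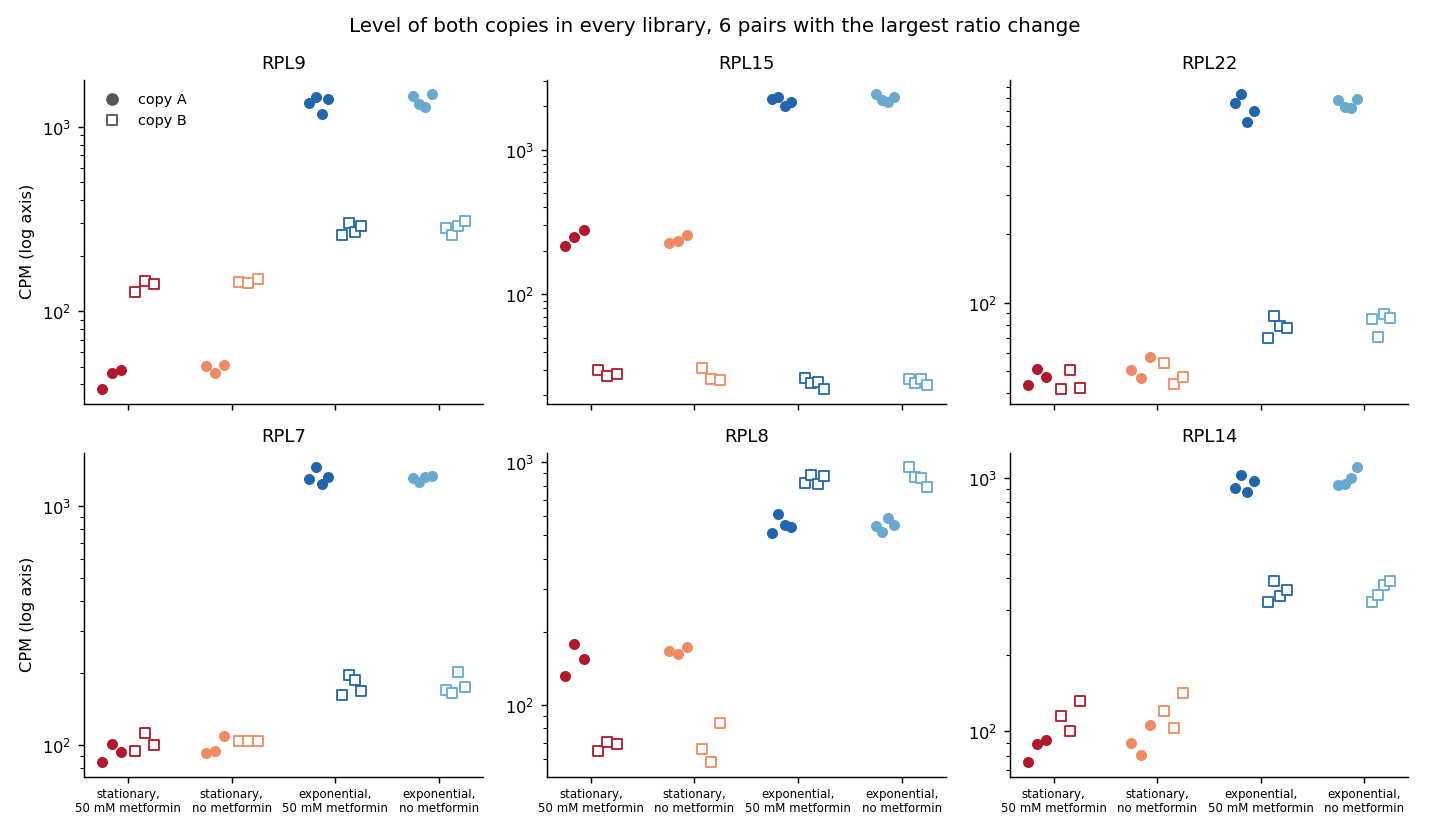
Level of copy A (filled circles) and copy B (open squares) in CPM on a log axis, in each of the 14 libraries, for the 6 pairs with the largest change of the A to B ratio between phases without metformin. In RPL9, RPL8 and RPL14 the copies change places between the phases, in RPL22 and RPL7 they come close together in stationary libraries, and RPL15B lies between 22.1 and 30.6 CPM in all 14 libraries.

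Summed over its copies, each of the 46 proteins had a lower mean transcript level in stationary than in exponential control libraries. The log2 ratio of summed CPM had a median of -2.93 and ran from -3.77 for RPL2 to -1.25 for RPL38. RPL9, where the copies differed most, lay at -3.11, RPL22 at -3.08 and RPL7 at -2.87. The ratio of a sum lies between those of its 2 copies by construction, and is the gene's own for the 11 single-copy proteins. Pairs that encode the same protein had a median absolute ratio change of 0.55 (12 pairs) and those with different proteins 0.64 (23 pairs), ranges that overlap.

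Between large and small subunits the balance also differed by phase. Summed counts on large over small subunit genes stood at 1.49 ± 0.00657 in stationary metformin, 1.45 ± 0.0169 in stationary control (SD, n = 3 each), 1.35 ± 0.0158 in exponential metformin and 1.35 ± 0.00997 in exponential control libraries (SD, n = 4 each). Every stationary library lay above every exponential one, and every stationary metformin library above every stationary control library. The ratio was not tested, and for 3 against 3 libraries an exact permutation p can be no less than 0.1. Stationary metformin and control libraries did not overlap in 11.2% of all features either. Reads dropped as not unique differ between the phases as given above, and their part in this ratio was not tested.

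Metformin changed no large subunit gene past the threshold. In exponential cultures 0 of 81 passed (edgeR adjusted p under 0.05, and 0 at an unadjusted p under 0.05; 0 by DESeq2), where 0.0984% of all features did. The members' log2 fold changes ran from -0.22 in RPL41A to 0.03 in RPP0, with a median of -0.06 against 0.01 over all features. Below 0 were 72 of 81 (55 to 81 when each library was left out in turn), against 2875 of all 6097 features. RPL41A averaged 1848 ± 275 CPM with metformin and 2157 ± 126 CPM without (SD, n = 4 each; log2 fold change -0.22, SE 0.20, edgeR adjusted p = 0.999). RPL39 stood at 703 ± 120.0 CPM with metformin and 820.0 ± 105 CPM without (-0.22, SE 0.22). RPP0 (0.03, SE 0.10) and RPL4B (0.02, SE 0.08), whose protein reaches into the exit tunnel, were at the upper end. The groups overlapped in all 81 genes, and did not overlap in 1.33% of all features. Between same-numbered libraries 70, 5, 81 and 76 of the 81 genes were lower with metformin in replicates 1, 2, 3 and 4. Over all features these shares were 50.4%, 49.9%, 52.8% and 52.4%. Lower in all 4 were 3 genes, and 5.54% of all features. Standard errors of 0.07 to 0.22 limit what could be seen, and 0 of 81 estimates exceeded 0.5 in size.

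In stationary cultures 0 of 81 members passed either (0 at an unadjusted p under 0.05; 0 by DESeq2), where 0.0492% of all features did. Values ran from -0.27 in RPL1B to 0.23 in RPL38, with a median of -0.11 against 0.01 over all features. Below 0 were 75 of 81 members, against 2816 of all 6097 features. RPL1B, which encodes the protein of the L1 stalk at the tRNA exit side, had 119.9, 136 and 171 CPM with metformin and 154, 150.5 and 209.6 CPM without. These ranges overlap, while each metformin library was below the control library of the same number (log2 fold change -0.27, SE 0.15, edgeR adjusted p = 0.728, and adjusted p = 0.241 with the replicate block within each phase). The groups overlapped in all 81 genes, and did not overlap in 11.2% of all features. RPL41A had -0.26 (SE 0.23), RPL15A 0.06 (SE 0.11) and RPL38 0.23 (SE 0.18). Between same-numbered libraries 77, 25 and 76 of the 81 genes were lower with metformin in replicates 1, 2 and 3, against 51.4%, 40.8% and 45.1% of all features, and 23 were lower in all 3, against 12.6%. The count below 0 depended on single libraries. Without stationary control replicate 3, which had the highest summed level of its group (13114 CPM against 10480 and 9892), the members' median was 0.01 and 37 of 81 were below 0; without stationary metformin replicate 3, the highest of its own group, the median was -0.18 and 77 were below 0. Without each of the other 4 stationary libraries in turn 60 to 77 were below 0, and without a same-numbered pair 63 to 78, at medians of -0.18 to -0.05. With the replicate block within each phase 75 were below 0, at a median of -0.10. With library totals alone the median of all features was -0.13 and that of the members -0.26.

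**Figure D5:**
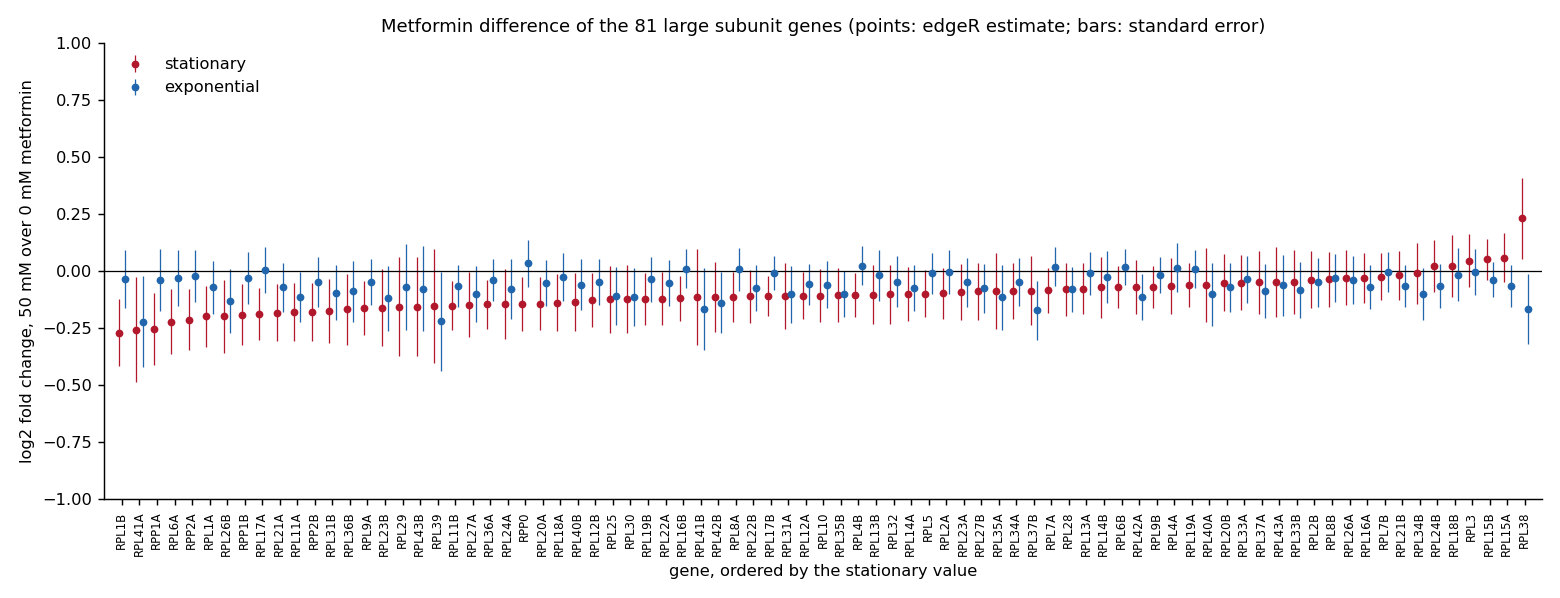
Log2 fold change of 50 over 0 mM metformin for each of the 81 genes, in stationary (red) and exponential (blue) cultures, ordered by the stationary value. Points are edgeR estimates and bars standard errors. All values lie between -0.27 and 0.23, most error bars reach 0, and 0 of 81 genes passed the threshold in either phase.

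An unequal metformin effect in the 2 phases, tested as an interaction, passed in 0 of 81 members, where 0.0164% of all features passed (edgeR; 0 members at an unadjusted p under 0.05, 0 by DESeq2). It ran from -0.24 in RPL1B (SE 0.19) and -0.22 in RPP1A (SE 0.21) to 0.13 in RPL15A (SE 0.14) and 0.40 in RPL38 (SE 0.23, adjusted p = 0.995). The copies' balance did not pass either. In exponential cultures 0 of 35 pairs changed, against 0% of all 62 pairs, and the largest absolute change was 0.09 on the log2 scale. In stationary cultures 0 of 35 passed, against 1.61% of all 62, and 2 had an unadjusted p under 0.05. The largest change in size was -0.20 in RPL41 (SE 0.11, limma adjusted p = 0.773; exact permutation p = 0.4, where 3 against 3 libraries allow no less than 0.1). The difference between phases passed in 0 of 35, against 0% of all 62. These p-values do not show that the groups were alike.

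Genes that serve the large subunit without being part of it had medians nearer 0 than its own genes, or above 0, between the phases. Of 40 tested factors of 60S assembly, 19 fell and 8 rose in stationary against exponential control libraries, with a median of -0.32, where 42.2% of all features fell and 42.4% rose, so that the share that fell was near that of all features. With metformin 24 of the 40 fell and 4 rose, with a median of -0.50, where 41.8% of all features fell and 40.8% rose. SDO1, which helps release the anti-association factor from new subunits, fell by 2.09 (SE 0.15), and MAK16, a factor of early nucleolar assembly, rose by 0.66 (SE 0.18). Of 5 chaperones dedicated to single large subunit proteins 4 fell without metformin (median -0.75) and 4 with it (median -0.77), with RRB1, the chaperone of Rpl3, at -1.999 (SE 0.17) without metformin. Of 5 lysine methyltransferases of large subunit proteins 4 fell and 1 rose without metformin (median -0.85), and 4 fell and 0 rose with it (median -1.05). RKM1 was at -2.01 (SE 0.13) and RKM5 at 0.45 (SE 0.17) without metformin. STM1, whose protein clamps idle ribosomes, fell by 2.51 (SE 0.11), and LSO2 did not pass (0.23, SE 0.23). Of 9 regulators of ribosomal protein genes 7 rose and 1 fell without metformin (median 1.28) and the counts with it were 7 and 1 (median 1.29). CRF1, a corepressor that competes with Ifh1 for Fhl1, rose by 3.02 (SE 0.11), HMO1 fell by 1.26 (SE 0.08), and RAP1 did not pass. These rises and falls between the phases were computed under TMM scaling. With library totals alone the median of all features moved to -1.02 without and -1.22 with metformin. The lists were not recomputed under that scaling, where rises as small as those of MAK16 and RKM5 could turn to falls. In both metformin comparisons 0 genes of these lists passed.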

How the data were processed

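RNA of 14 libraries was ribodepleted, made into directional libraries and sequenced, per the labels' protocols. Raw counts per feature, not normalized, make up the table the authors deposited. STAR, HTSeq and SAMtools are named per the submitters' processing notes. Not given in the sources used here are their versions, the genome build and the strand setting of counting. The 5 summary rows (not unique, ambiguous and the like) stayed out of library sizes and tests. They include reads that fit both copies of a pair, so near-identical copies have uncertain counts. All 6470 identifiers matched R64, which supplied names, coordinates and sequences.

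Features passing filterByExpr (minimum count 10, minimum total 15) numbered 6097, all 81 members among them. Counts, 43897221 to 59443572 per library, received TMM factors and went into edgeR 4.0.16 (R 4.3.3), quasi-likelihood test, all 14 libraries in one fit with group as the term, two-sided, Benjamini-Hochberg over all features, threshold 0.05. For genes, SE is the standard error of a log2 fold change, derived as its absolute value divided by the square root of the F statistic. For pairs, SE is the moderated standard error from limma. A to B ratios, log2 of counts plus 0.5, were tested with limma 3.58.1 over the 62 pairs of A and B genes with a mean of at least 10 counts per copy and group, with exact permutation tests over libraries beside them. CPM are TMM-scaled. Shares of gene counts are unscaled. Scripts were tested on simulated data. Alternatives were DESeq2 1.42.0 and its size factors, upper quartile, library totals, no filter, a replicate block, a pseudocount of 5, limma-trend, only the compared groups, and leaving out each library. Leaving out both stationary libraries of 1 number was chosen after seeing the data.

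Titles number the stationary replicates 1, 2 and 3, and the table's columns 1, 2 and 5. Same-numbered libraries deviated together within each phase (correlations of deviations from group means 0.103 to 0.624 in exponential and 0.136 to 0.467 in stationary metformin and control libraries), and between phases with metformin (0.151 to 0.261) but not without it (-0.06 to -0.03). The numbers were therefore taken to pair the libraries, except between control libraries of the 2 phases. The labels do not state such a pairing. The main tests did not use it, and results with replicate blocks are given beside them.

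The members and lists were chosen with earlier results of these data known. Named were all RPP genes, the 4 highest and 4 lowest log2 fold changes of each phase comparison, the 2 highest and 2 lowest of each metformin comparison and of the difference, the 3 highest and 3 lowest levels per kilobase, and the 6 pairs with the largest ratio change; RPL2A, the other copies of these pairs and the pairs whose larger copy switched were named after their values were seen.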

Additional observations from a re-analysis of the deposited data

Results flagged for a closer look

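In exponential control libraries copy A of RPL7 made up 86.7% of the pair's counts in replicate 3, while the other 3 libraries were at 88.4% each. The gap to the nearest library, 0.964 of the group's range, set this value apart. Of 56 groups of 4 values looked at, 1 had such a value, where chance gives about 1 in 20. All exponential libraries of this pair lay far above the stationary ones. In exponential metformin libraries copy A of RPL7 was also lowest in replicate 3, at 86.8% against 88.1% to 88.9%. Copy A of RPL9, RPL14, RPL15 and RPL22 was likewise lowest in replicate 3 of both exponential groups. For RPL8 replicate 3 was neither lowest nor highest in either group. The cause was not tested.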

How the results depend on the processing

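Over 915 recomputed values, 899 kept their direction and their side of the threshold, moved by less than the replicate spread, or, for counts of calls, stayed near the main count. Counts of changed pairs between phases, all among these, ran from 28 to 31 without and from 28 to 30 with metformin. The counts of called genes stayed at 80 to 81 in the phase comparisons and at 0 in the metformin comparisons. With the replicate block (paired libraries) they were 80 of 81 without and 81 with metformin between phases. They were 0 in both metformin comparisons and 0 for their difference. Changed pairs were then 29 and 30 between phases and 0 otherwise. This block shared the replicate numbers over both phases. It thus also paired the control libraries between phases, which were not taken as paired above. A replicate block within each phase, chosen after seeing the data, gave 0 members and 0 pairs. Under library totals alone, RPL15A in stationary cultures turned to -0.10 and its difference between phases to -0.0524, and RPL15B between phases to -0.90 without and -0.99 with metformin, in a scaling that moved all genes down. The members' median moved there to -3.98 and -4.21, and for the difference to -0.23. Leaving out each library in turn gave ranges across 0 for the members' medians for metformin in stationary cultures (-0.185 to 0.00907) and for the difference between phases (-0.124 to 0.0815), and for 5 named genes that never passed: RPL38 (-0.0474 to 0.411) and RPL15A (-0.0346 to 0.151) for metformin in stationary cultures, RPP0 (-0.00233 to 0.0640) and RPL4B (-0.0187 to 0.0337) for metformin in exponential cultures, and RPP1A (-0.366 to 0.00529) for the difference. The cause was not tested. RPL15B between phases with metformin ranged from 0.18 to 0.26, and was 0.19 under upper quartile. Changed pairs for metformin in stationary cultures numbered 0 to 1: without stationary control replicate 1, RPL21 passed (-0.21, limma adjusted p = 0.0474). Over all features, metformin in stationary cultures gave 3 calls with edgeR, 35 higher and 12 lower with DESeq2, 9 higher and 1 lower with the replicate block within each phase, and 0 with only the compared groups, none of them a member. Groups of 3 and 4 libraries and the shared reads of copies limit the precision.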
